A study of Mus musculus with 6 samples.

Results

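Mitochondrial ribosomal protein genes were followed in B16F10 cells, a mouse melanoma line, given an extract of Polianthes tuberosa, the tuberose plant, and in control cells. The members were the protein-coding genes of the count table whose mouse symbol begins with Mrpl or Mrps and a digit, which gave 77 of the table's 27067 gene identifiers. The series holds 3 extract-treated and 3 control libraries of polyadenylated RNA. The labels give no dose, exposure time or solvent, and no strain or genotype beyond the cell line. They do not say that the libraries of a group came from separate cultures, so the p-values measure only the spread between these libraries, which may be technical.

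The mitochondrial ribosome is the machine that translates the few proteins encoded by mitochondrial DNA, all of them subunits of the respiratory chain and ATP synthase. Its ribosomal RNAs are made inside the mitochondrion, whereas all its proteins are encoded in the nucleus, made in the cytosol and imported. Many of these proteins have a counterpart in bacterial ribosomes, and the others are specific to mitochondria. By symbol, Mrps genes belong to the small subunit, which reads the messenger RNA, and Mrpl genes to the large subunit, which joins amino acids. Mrps18a and Mrps30 are exceptions whose proteins sit in the large subunit, and Mrps36 is known as a subunit of the α-ketoglutarate dehydrogenase complex.

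Library totals ran between 31183728 and 40129044 counts, and every member had between 283 and 7069 counts in each library. Values are given as CPM, a gene's counts in proportion to its library's total, after scaling by trimmed mean of M values, and log2 fold changes are treated over control with their standard errors (SE). A gene was called changed at a Benjamini-Hochberg adjusted p under 0.05 in edgeR's quasi-likelihood test over 15150 genes, of which 8032 passed. The summed level of 7 pigment cell identity genes was 13888 to 14704 CPM in treated libraries and 16696 to 17302 CPM in control libraries. These genes did not move alike. Of them 6 fell, from Pmel at a log2 fold change of −0.71 to Mlana at −0.05, and Tyrp1 rose with 0.17. Of 10 markers of other cell types, 7 were in the table and 2 were high enough to test. Their summed level was 7.46 to 8.36 CPM in treated and 3.41 to 3.63 CPM in control libraries, most of it from the macrophage gene Cd68. Without Cd68 it was 0.376 to 0.519 CPM in treated and 0.119 to 0.358 CPM in control libraries. Ptprc, Lum, Cdh5 and Krt14 were each at 0 in every control library and in 2 of 3 treated libraries. Krt5 went the other way, at 0 in every treated library and at 0.05 CPM in control replicate 1 alone. The part of these shifts in the results below was not tested.

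Most mitochondrial ribosomal protein genes were modestly lower in treated cells, but the fall was not uniform. All 77 members passed the filter on low counts. Of them 63 were lower, 4 were higher and 10 did not pass the test in either direction. Among all tested genes, 27.9% were lower and 25.1% were higher by the same rule. The members' median log2 fold change was −0.27, a change of −17.3%, with quartiles of −0.39 and −0.14 and a range from −0.62 to 0.38. The median over all tested genes was 0.01. Of the 63 that fell, 61 did so by less than 1.5-fold and 2 by more. The SE of a member's log2 fold change was 0.03 to 0.09.

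Added over the members, the genes took 3244, 3248 and 3296 CPM in the treated libraries, against 3940, 3948 and 3936 CPM in the control libraries. Each treated sum lay below each control sum. The means were 3263 ± 28.9 CPM in treated and 3941 ± 6.14 CPM in control libraries (SD, n = 3 each). In these bulk libraries, a change in the share of cells of a kind and a change in RNA per cell cannot be told apart. Gene by gene, 61 members had all 3 treated values below all 3 control values, as 30.3% of all tested genes did. The opposite order was found for 4 members and for 28.4% of all tested genes, and the 2 groups overlapped for 12 members.

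**Figure D1:**
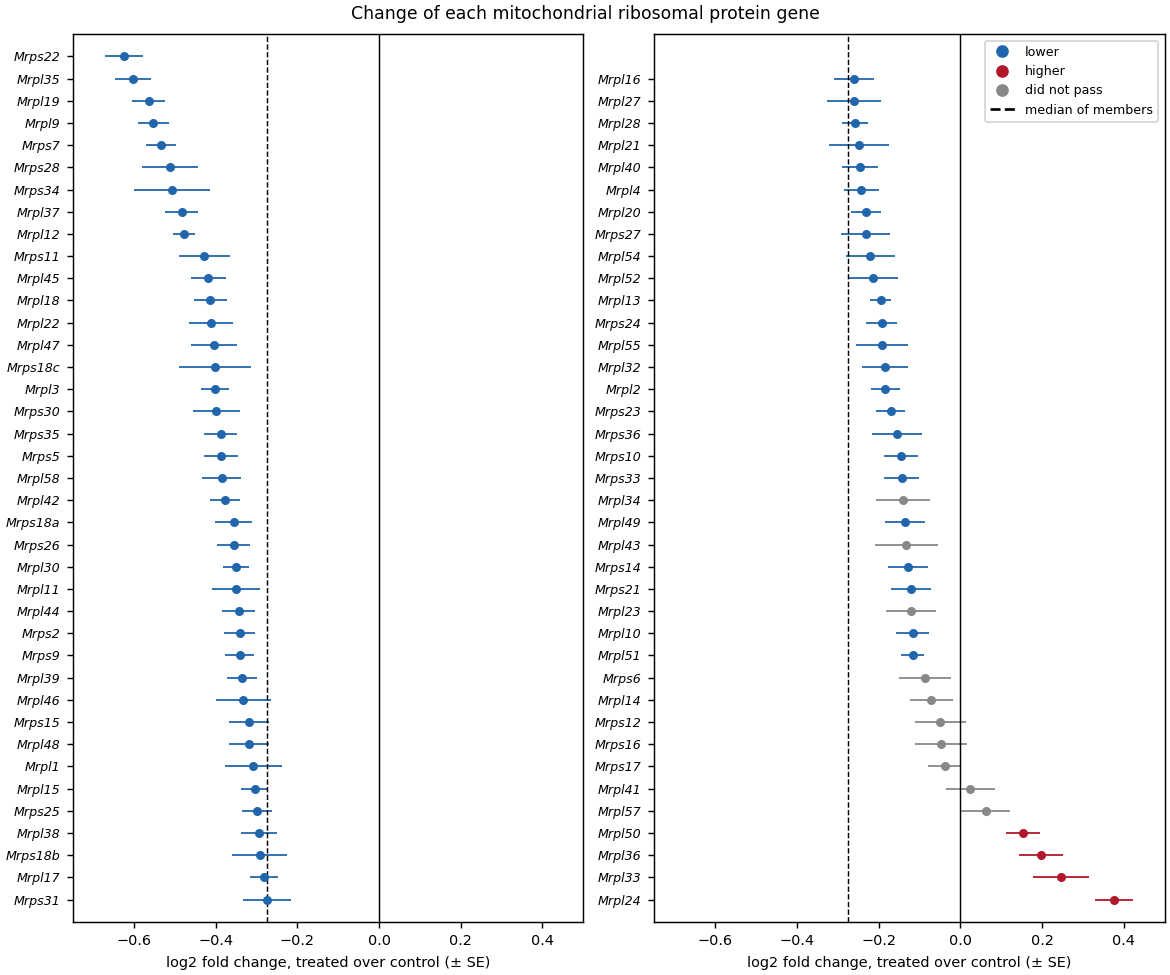
Log2 fold change of each of the 77 mitochondrial ribosomal protein genes, treated over control, with bars of 1 SE; the colour gives the call against no change, and the dashed line is the members' median of −0.27. The genes run from Mrps22 at −0.62 to Mrpl24 at 0.38, and only 4 lie past the threshold on the higher side.

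Both subunits were lower by a similar amount. Small subunit genes summed to 979 ± 8.42 CPM in treated and 1187 ± 11.3 CPM in control libraries, and large subunit genes to 2259 ± 21.5 CPM in treated and 2727 ± 8.67 CPM in control libraries (SD, n = 3 each). These are changes of −17.5% and −17.2%. Of 26 small subunit genes, 22 fell and 4 did not pass, with a median of −0.30. Of 50 large subunit genes, 40 fell, 4 rose and 6 did not pass, with a median of −0.26. By assigned class, 10 of 10 small subunit genes and 16 of 20 large subunit genes without a bacterial counterpart fell, as did 12 of 16 small subunit and 24 of 30 large subunit genes with one. Mrps18a and Mrps18b were classed as without a counterpart, although they are paralogues of Mrps18c, which was classed as having one. The class counts depend on such choices. No difference between these classes was tested. Mrps36, which is outside both counts, had 24.4, 22.4 and 25.01 CPM in treated and 27.2, 26.9 and 25.8 CPM in control libraries (log2 fold change −0.15, adjusted p = 0.0372 in edgeR). Its call was lost without control replicate 1, without control replicate 2 or without treated replicate 2, and also with the stricter filter of 1 CPM, with DESeq2, and with library totals in place of scaling factors, where the log2 fold change was −0.077.

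To name the members that departed from the shared fall, each gene was also tested in edgeR against a log2 fold change of −0.27 in place of 0. By this test 22 members lay above the shared fall, 20 lay below it and 35 passed in neither direction. Among all tested genes 59.8% lay above that value and 6.32% below it, so a position above it is common in these cells and a position below it is less so. The number below was 12 without control replicate 1. Of these departures, 13 above and 9 below passed under each of the 15 settings tried, counting the reported one. The members' median was taken anew in each setting, so a scaling that shifts all genes alike cancels out of the departure test. The settings with median-of-ratios factors or library totals therefore could hardly change a departure.

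The members that fell furthest came from both subunits. Mrps22, a small subunit protein without a bacterial counterpart, had 32.6, 33.1 and 34.0 CPM in treated and 52.9, 52.3 and 48.5 CPM in control libraries. The groups were well separated, with a log2 fold change of −0.62 ± 0.05 (SE; adjusted p = 7.76e-11 against no change and 5.53e-07 against the shared fall, edgeR). Mrpl35, a large subunit protein shared with bacteria, had 31.4, 34.5 and 32.8 CPM in treated and 50.3, 50.0 and 49.7 CPM in control libraries. Its control values lay within 1 CPM of each other and its log2 fold change was −0.60 ± 0.05 (SE; adjusted p against the shared fall 1.21e-06, edgeR). Mrps22 and Mrpl35 are the 2 members that fell by more than 1.5-fold.

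The other 7 members below the shared fall under every setting included structural proteins of the large subunit. Mrpl9, whose bacterial counterpart lies near the L1 stalk, had 46.3, 45.6 and 45.7 CPM in treated and 67.9, 68.8 and 65.1 CPM in control libraries, a log2 fold change of −0.55. Mrpl19, a protein of the face that meets the small subunit in bacteria, fell by 0.56 on the log2 scale. Mrpl19 shares 36.0% of its exon bases with Gcfc2, whose own log2 fold change was −0.16, and reads of the 2 genes cannot be told apart if strand was not used in counting. Mrpl37, found only in mitochondria, had 51.0, 54.2 and 56.2 CPM in treated and 77.4, 76.1 and 72.0 CPM in control libraries. Mrpl3, a protein near the peptidyl transferase centre in bacteria, had a smaller log2 fold change of −0.40 (adjusted p against the shared fall 0.00232, edgeR).

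Among small subunit genes, Mrps7, which binds the head of the small subunit RNA in bacteria, had 51.4, 50.4 and 51.6 CPM in treated and 71.8, 75.3 and 75.3 CPM in control libraries. Mrps28 was lower in level, with 14.7, 14.3 and 15.6 CPM in treated and 20.6, 21.7 and 21.4 CPM in control libraries. Their log2 fold changes were −0.53 and −0.51, and no treated value of either gene reached a control value.

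The other members below the shared fall ran from Mrps34 at −0.51 to Mrpl30 at −0.35, and each of them lost its departure under at least 1 setting. Mrps34 shares 63.4% of its exon bases with Mapk8ip3 on the opposite strand, a gene that rose with a log2 fold change of 0.17. It also shares 37.0% of them with Nme3 on the same strand, where strand could not separate the reads. Nme3 had a total of 0 counts. Mrpl18, the counterpart of a bacterial 5S RNA-binding protein, and Mrps35, specific to mitochondria, had −0.41 and −0.39; the departure of Mrpl18 was lost without control replicate 1, and that of Mrps35 without control replicate 2 or treated replicate 1. Mrpl58, a peptidyl-tRNA hydrolase that became part of the large subunit, had 32.4, 31.1 and 32.6 CPM in treated and 40.8, 41.02 and 43.5 CPM in control libraries. Its adjusted p against the shared fall was 0.0479 (edgeR), and that departure was lost without each library in turn except control replicate 2.

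Mrpl12 and Mrpl10 form the flexible stalk that brings translation factors to the ribosome, and they departed from the shared fall on opposite sides. Mrpl12 had 125, 128 and 130 CPM in treated and 181, 178 and 175 CPM in control libraries, with a log2 fold change of −0.48 ± 0.03 (SE; adjusted p = 9.45e-13 against no change and 7.82e-07 against the shared fall, edgeR). Mrpl10, the protein that holds Mrpl12 on the ribosome, had a log2 fold change of −0.12 (adjusted p = 0.0203 against no change and 0.00193 against the shared fall, edgeR). The call of Mrpl10 against no change was lost without control replicate 1, control replicate 3 or treated replicate 1, and also with DESeq2, with library totals (−0.039) and with scaling that depends on expression level (−0.069), while its departure held. Per kilobase of exon, Mrpl12 had the highest mean level of all members, at 83.3 ± 1.61 CPM per kilobase in treated and 116 ± 2.08 in control libraries (SD, n = 3 each).

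On that length-scaled measure the members spanned a 31.1-fold range of levels, with a median of 17.3 CPM per kilobase over all libraries. Mrpl28 was second, with 58.4 ± 1.21 CPM per kilobase in treated and 69.9 ± 1.12 in control libraries. Mrps23 came next with 55.7 ± 1.25 in treated and 62.8 ± 3.44 in control libraries, and Mrpl2 with 52.2 ± 1.13 in treated and 59.3 ± 1.498 in control libraries. Mrps21, a small subunit protein, was close to Mrpl2, at 50.6 ± 2.87 in treated and 55.1 ± 1.40 in control libraries (SD, n = 3 each). Within treated libraries, Mrpl28, Mrps23, Mrpl2 and Mrps21 were each within a few CPM per kilobase of the next, and the order of Mrpl2 and Mrps21 was within their SD. Mrpl33 stood lowest at 3.20 CPM per kilobase over all libraries, with 7326 annotated exon bases. All annotated exons of a gene counted toward its length, so these ranks and the range also depend on the annotation.

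Mrpl24, Mrpl33, Mrpl36 and Mrpl50, all of the large subunit, rose. Mrpl24, whose bacterial counterpart starts the assembly of the large subunit, had 46.8, 46.5 and 50.7 CPM in treated and 36.9, 36.1 and 38.0 CPM in control libraries. The log2 fold change was 0.38 ± 0.05, a change of 29.9% (SE; adjusted p = 2.73e-07 against no change and 2.36e-11 against the shared fall, edgeR). It shares 26.3% of its exon bases with Rrnad1, which did not pass the test (25.03 CPM in treated and 25.5 CPM in control libraries).

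Mrpl33 had 24.3, 24.0 and 28.1 CPM in treated and 21.6, 22.1 and 20.6 CPM in control libraries, a log2 fold change of 0.25 ± 0.07 (SE; adjusted p = 0.00391, edgeR). The third treated library lay above the other two. Mrpl36 had 30.3, 32.3 and 31.2 CPM in treated and 27.8, 27.3 and 26.7 CPM in control libraries, a log2 fold change of 0.20 ± 0.05 (SE; adjusted p = 0.00391, edgeR). Mrpl33 and Mrpl36 are both small proteins with bacterial counterparts. Mrpl50, found only in mitochondria, had 57.0, 58.2 and 57.4 CPM in treated and 54.1, 52.2 and 48.8 CPM in control libraries, a log2 fold change of 0.15 ± 0.04 (SE; adjusted p = 0.00341, edgeR), and it shares no exon bases with another gene. These 4 genes were higher in treated libraries under every setting tried, and each lay above the shared fall under every setting.

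A further 8 members lay above the shared fall and did not pass against no change. Mrpl57 had 24.5, 24.2 and 23.3 CPM in treated and 22.5, 23.9 and 22.6 CPM in control libraries, and Mrpl41 had 24.99, 26.8 and 26.9 CPM in treated and 26.6, 24.5 and 26.2 CPM in control libraries. Both are large subunit proteins specific to mitochondria, and their groups overlapped. In the small subunit, Mrps17 had 47.7, 48.2 and 49.7 CPM in treated and 51.4, 49.6 and 48.5 CPM in control libraries, a log2 fold change of −0.04 (adjusted p = 0.456 against no change and 2.33e-05 against the shared fall, edgeR). Mrps12, a protein of the decoding centre, had 29.3, 28.3 and 25.3 CPM in treated and 27.3, 29.1 and 29.5 CPM in control libraries. Mrps16 and Mrpl14 had log2 fold changes of −0.05 and −0.07. The sign of Mrps12, Mrps16, Mrps17 and Mrpl14 turned positive with library totals in place of scaling factors. Their departure from the shared fall passed in every setting, although library totals could hardly change it, since the members' median shifts with them. Mrps12 also turned positive without treated replicate 3, and Mrpl41 turned negative without control replicate 2.

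Mrps6 and Mrpl23 completed these 8, with log2 fold changes of −0.09 and −0.12. The departure of Mrps6 was lost without control replicate 3, and that of Mrpl23 without control replicate 2 or 3 or treated replicate 2 or 3. Mrps6 shares 10.4% of its exon bases with Slc5a3, a transporter gene that rose with a log2 fold change of 0.37. Mrpl34 and Mrpl43 passed neither test; Mrpl43 shares 33.4% of its exon bases with Twnk, the mitochondrial DNA helicase gene, which rose with a log2 fold change of 0.21. Leaving out the 32 members that share exon bases with another gene, 37 of the other 45 fell, 1 rose and 7 did not pass, with a median of −0.26, and 13 lay above and 10 below the shared fall.

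The 10 other members above the shared fall had fallen, but by less. Mrpl51, a large subunit protein specific to mitochondria, had 114, 113 and 115 CPM in treated and 126, 123 and 121 CPM in control libraries, a log2 fold change of −0.12 (adjusted p = 9.95e-04 against no change and 2.74e-05 against the shared fall, edgeR). Its call against no change was lost with library totals (−0.039) and with scaling that depends on expression level (−0.024). Mrps33, a small subunit protein specific to mitochondria, had a log2 fold change of −0.14 (adjusted p = 0.0108 against the shared fall, edgeR). Its departure held under every setting, while its call against no change did not. Mrpl13, Mrpl2, Mrps23, Mrps10 and Mrpl49 had log2 fold changes of −0.20, −0.18, −0.17, −0.15 and −0.14. Each of these 5 lost its departure under at least 1 setting.

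**Figure D2:**
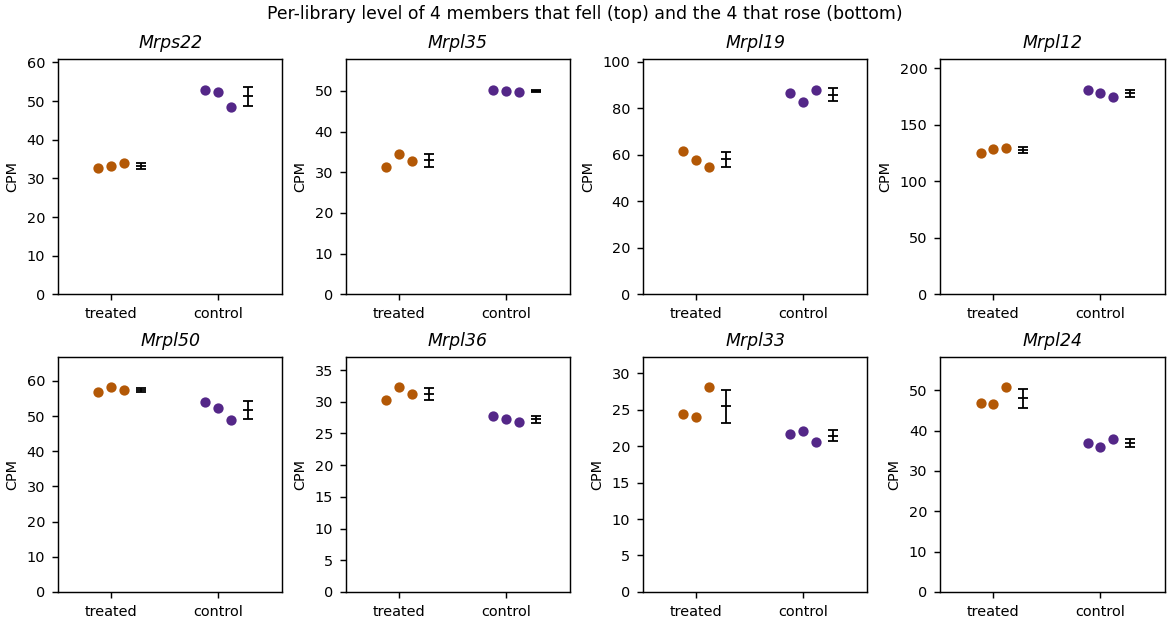
CPM in each library for 4 members below the shared fall and the 4 that rose, with treated libraries left of control libraries in each panel; bars give the mean and SD of 3 libraries and every axis starts at 0. Mrps22, Mrpl35, Mrpl19 and Mrpl12 have every treated point below every control point, and Mrpl24, Mrpl33, Mrpl36 and Mrpl50 have every treated point above.

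Mrps18a, Mrps18b, Mrps18c, Mrpl44 and Mrps30 fell without passing the test against the shared fall. The Mrps18 genes are paralogues, of which Mrps18a belongs to the large subunit. Mrps18a had 37.0, 37.3 and 34.1 CPM in treated and 46.8, 45.7 and 46.2 CPM in control libraries, Mrps18b had 16.9, 17.9 and 17.2 CPM in treated and 21.9, 20.1 and 21.7 CPM in control libraries, and Mrps18c had 8.46, 9.03 and 8.87 CPM in treated and 11.5, 12.3 and 11.0 CPM in control libraries. The groups did not overlap for any of them. Their log2 fold changes were −0.36, −0.29 and −0.40, and none passed against the shared fall (adjusted p = 0.121, 0.829 and 0.207, edgeR). Mrpl44, which has a ribonuclease III-like fold, had 44.7, 46.7 and 45.3 CPM in treated and 57.0, 56.1 and 60.4 CPM in control libraries. Mrps30 had 24.3, 25.4 and 27.9 CPM in treated and 34.4, 33.7 and 34.1 CPM in control libraries. Mrpl45, which lies at the exit of the peptide tunnel facing the inner membrane, fell by 0.42 on the log2 scale and lay below the shared fall, a departure that was lost without treated replicate 2.

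Members with short coding sequences accounted for most of those that did not fall. Over the 20 members with 261 to 435 coding bases, 10 fell, 2 rose and 8 did not pass, with a median log2 fold change of −0.12. Over the 19 with 444 to 588 coding bases, 16 fell, 1 rose and 2 did not pass, with a median of −0.26. Over the 19 with 600 to 849 bases, 18 fell and 1 rose, with a median of −0.32, and all 19 with 873 to 1326 bases fell, with a median of −0.34. As a description across members, which share libraries and are not independent, Spearman's rho between coding length and log2 fold change was −0.59 (77 members). It was −0.60 over the 26 small subunit genes, −0.56 over the 50 large subunit genes and −0.67 over the 45 members without shared exon bases.

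Level moved with length as well. The median level in those 4 length classes was 27.2, 42.1, 39.1 and 56.9 CPM, in order of length. Over the members, coding length and mean CPM had a rho of 0.29. Coding length showed rho of 0.03 with log2 fold change over 12190 tested protein-coding genes and −0.004 over the 5497 of them within the members' range of lengths. Mean CPM showed rho of −0.39 with log2 fold change over the same 12190 genes and −0.20 over the members. Genes with higher levels thus tended to have lower log2 fold changes in the series as a whole. The part of level in the pattern over the members was not tested.

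**Figure D3:**
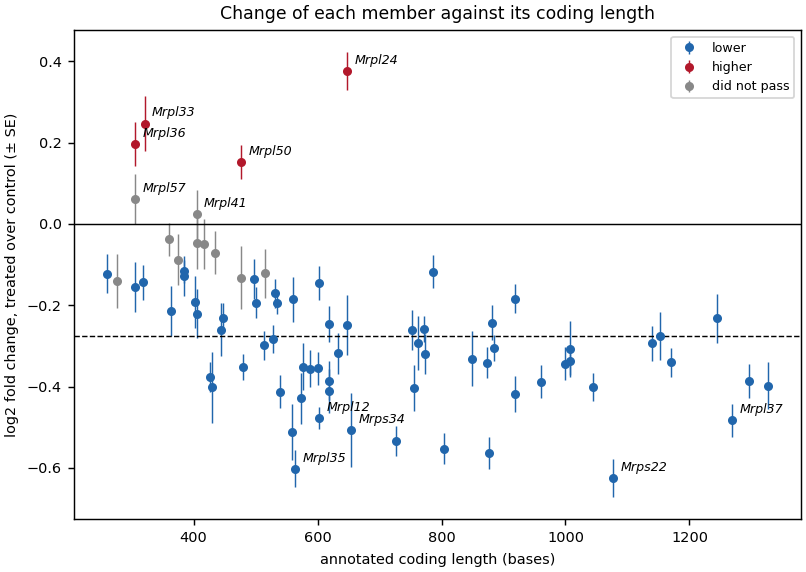
Log2 fold change, treated over control, against coding length in bases for the 77 members, with bars of 1 SE. The shortest members, with 435 coding bases or fewer, spread around a median of −0.12, and the longest, with 873 or more, around −0.34.

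Promoters of these genes were read for letters that known regulators of mitochondrial genes bind, since nuclear respiratory factor 1 (NRF1), ETS factors such as GABP, and YY1 are known activators of them. RefSeq gave a promoter, from 250 bases before to 50 after the start of the gene on GRCm38.p6, for 68 of the 77 members, 74 promoters in all. Some members have several promoters, up to 4, so a gene was counted once if any of its promoters held the letters on either strand. The NRF1 core GCGCATGCG was held by 10.3% of the 68 members, 4.11% of 10288 tested genes and 1.95% of all 27025 genes of the promoter table. The ETS core CCGGAAG was held by 36.8% of members, 20.2% of tested genes and 9.93% of all genes, and the YY1 core AAGATGGCG by 11.8% of members, 3.57% of tested genes and 1.64% of all genes. The E-box CACGTG was held by 7.35% of members, 11.7% of tested genes and 8.09% of all genes. The cyclic AMP response element TGACGTCA was held by 2.94% of members, 3.59% of tested genes and 2.03% of all genes, and the TATA box letters TATAAA by 7.35%, 8.47% and 15.7% of the same groups. No match of the NRF1, ETS and YY1 cores overlapped another's. The 35 members with an NRF1, ETS or YY1 core and the 33 with none both had a median log2 fold change of −0.26, and 28 and 26 of them fell. Core by core, the median was −0.29 over the 7 members with the NRF1 core against −0.26 over those without it, −0.25 over the 25 with the ETS core against −0.27, and −0.37 over the 8 with the YY1 core against −0.26. Over tested genes the median was −0.07 with the NRF1 core against 0.01 without it, −0.06 with the ETS core against 0.03, and −0.11 with the YY1 core against 0.01. None of these differences was tested. A match is a description of these letters, not a site.

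Promoters of the 2 members that fell furthest, of Mrpl9 as a falling member with the NRF1 core, and of Mrpl36 as a member that rose are shown to set these letters beside the changes. The capitals mark matches to the cores above: the ETS core in Mrps22 (chr9:98601630-98601929, minus strand), the YY1 core in Mrpl35 (chr6:71823735-71824034, minus strand), the NRF1 core in Mrpl9 (chr3:94443086-94443385, plus strand; the core overlaps its own reverse complement), and the YY1 core on the opposite strand and the E-box in Mrpl36 (chr13:73330759-73331058, plus strand).
Mrps22: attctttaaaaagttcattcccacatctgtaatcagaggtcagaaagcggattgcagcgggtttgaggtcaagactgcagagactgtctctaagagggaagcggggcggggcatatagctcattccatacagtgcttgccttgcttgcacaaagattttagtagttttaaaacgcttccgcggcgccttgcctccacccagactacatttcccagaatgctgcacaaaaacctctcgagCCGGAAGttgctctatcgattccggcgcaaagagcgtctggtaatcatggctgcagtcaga
Mrpl35: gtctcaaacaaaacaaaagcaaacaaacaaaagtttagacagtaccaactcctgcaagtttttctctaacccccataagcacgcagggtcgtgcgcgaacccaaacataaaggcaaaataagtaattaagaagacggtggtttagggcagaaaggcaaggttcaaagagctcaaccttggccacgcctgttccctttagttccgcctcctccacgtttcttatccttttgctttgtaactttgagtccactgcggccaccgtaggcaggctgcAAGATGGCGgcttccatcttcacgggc
Mrpl9: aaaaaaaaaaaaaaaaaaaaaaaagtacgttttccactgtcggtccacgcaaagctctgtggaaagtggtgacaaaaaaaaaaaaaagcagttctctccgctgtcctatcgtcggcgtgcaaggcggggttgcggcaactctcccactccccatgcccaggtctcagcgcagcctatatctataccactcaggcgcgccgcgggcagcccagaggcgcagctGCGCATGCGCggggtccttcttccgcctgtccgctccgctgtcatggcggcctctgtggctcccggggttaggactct
Mrpl36: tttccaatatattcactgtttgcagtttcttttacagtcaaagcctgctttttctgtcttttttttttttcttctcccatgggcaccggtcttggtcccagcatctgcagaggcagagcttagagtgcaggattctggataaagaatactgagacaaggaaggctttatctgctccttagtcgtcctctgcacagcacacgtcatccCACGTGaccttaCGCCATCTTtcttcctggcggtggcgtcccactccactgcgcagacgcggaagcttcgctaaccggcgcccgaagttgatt
Of the 8 members with the YY1 core, 7 fell and Mrpl36 rose.

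Of 10 transcripts for the regulators themselves, 4 rose, 3 fell and 3 did not pass, against 25.1% higher and 27.9% lower among all tested genes. Myc, a growth factor-responsive activator of ribosome genes, had a log2 fold change of 0.36 and Ppargc1a, a coactivator of mitochondrial genes, 0.35, while Yy1 had 0.12 and Gabpa 0.10. Gabpb2 and Pprc1, a GABP subunit and a coactivator of the same family as Ppargc1a, fell with log2 fold changes of −0.28 and −0.29, and Nrf1 with −0.18.

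Other genes of the mitochondrial translation system were often lower too, beside 27.9% lower and 25.1% higher among all tested genes. Of 5 mitochondrial ribosomal proteins with other symbols, 4 fell, with a median of −0.28. Dap3, a GTP-binding small subunit protein, had 102 ± 2.17 CPM in treated and 124 ± 3.98 CPM in control libraries (SD, n = 3 each), a log2 fold change of −0.28. Gadd45gip1, a low-count large subunit gene, had 3.85 ± 0.225 CPM in treated and 5.89 ± 0.689 CPM in control libraries (SD, n = 3 each), a log2 fold change of −0.61 ± 0.13. Aurkaip1 did not pass (−0.08, adjusted p = 0.0761, edgeR).

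Of 28 tested assembly and ribosomal RNA modification factors, 16 fell, 2 rose and 10 did not pass, with a median of −0.23. The helicase Dhx30 had −0.41, the GTPase Noa1 −0.53 and the pseudouridine synthases Trub2 and Rpusd4 −0.24 and −0.46, while Ngrn and Gtpbp10 rose with 0.17 and 0.10. Of 17 translation factors, 9 fell and 8 did not pass, with a median of −0.19. The shares over all tested genes were 27.9% lower and 25.1% higher. The elongation factors Tufm and Gfm1 each had −0.39, and Oxa1l, which inserts new proteins into the inner membrane, had −0.41.

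Transcription of mitochondrial DNA was represented by 9 genes, of which 3 fell, 2 rose and 4 did not pass, against 27.9% lower and 25.1% higher among all tested genes. Polrmt, the mitochondrial RNA polymerase, had 34.5 ± 0.198 CPM in treated and 51.1 ± 2.16 CPM in control libraries (SD, n = 3 each), a log2 fold change of −0.57. Tfam, which packages mitochondrial DNA and starts its transcription, did not pass (−0.05, adjusted p = 0.183, edgeR). The proteins encoded by mitochondrial DNA are what this ribosome makes, and 9 of their 13 transcripts fell, 2 rose and 2 did not pass, with a median of −0.17. The small subunit RNA mt-Rnr1 had 460, 448 and 453 CPM in treated and 298, 279 and 305 CPM in control libraries, a log2 fold change of 0.62 ± 0.03 (SE; adjusted p = 8.07e-15, edgeR). The large subunit RNA mt-Rnr2 averaged 702 ± 21.8 CPM in treated and 708 ± 12.9 CPM in control libraries (SD, n = 3 each) and did not pass (adjusted p = 0.671, edgeR). Both were read in libraries selected for poly(A) tails, which limits them as measures of ribosomal RNA.

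Cytosolic ribosomal proteins, the nearest comparison, also fell together. Of 78 such genes, 67 fell, none rose and 11 did not pass, with a median of −0.19. Complex I genes had 19 of 37 lower, 5 higher and 13 not passing, with a median of −0.09. Over all tested genes 27.9% were lower and 25.1% higher. The difference between these lists was not tested.

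**Figure D4:**
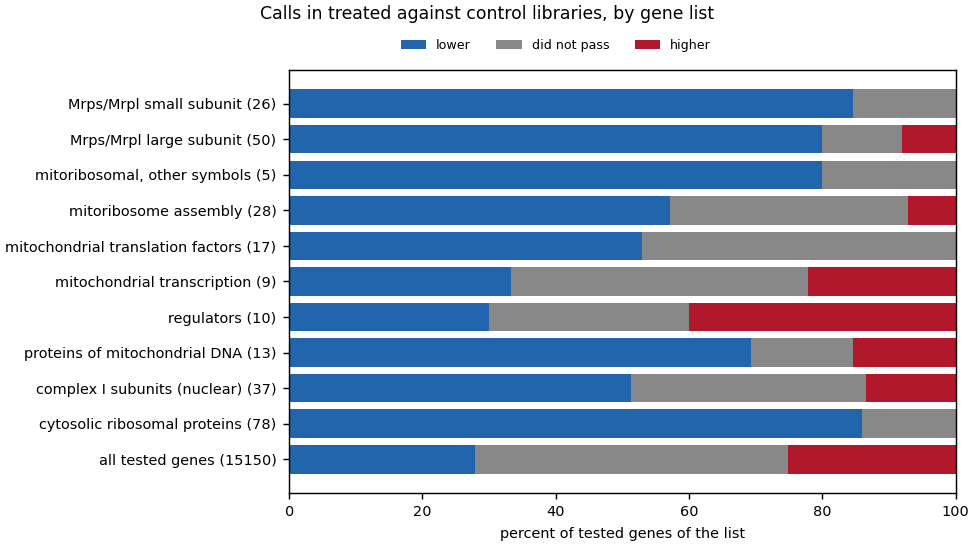
Percent of each list's tested genes that were lower, did not pass or were higher in treated against control libraries, as stacked bars with the number tested in brackets. The small and large subunit genes and the cytosolic ribosomal proteins hold the longest lower shares among the larger lists, against 27.9% over all tested genes.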

How the data were processed

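RNA-seq of B16F10 cells was measured in 6 libraries. The authors deposited 1 table of raw read counts per gene, which holds every library. Per the submitters' processing notes the tools include fastp (0.22.0), HISAT2 (2.2.0) and featureCounts (2.0.6), and both mm39 and hg38 are named as builds; the sources used here give neither the annotation release nor the strand setting. All 6 count columns matched a labelled library. Every row held a mouse gene identifier, and 26531 of the 27067 identifiers matched a symbol in GENCODE M21 (GRCm38), while 536 did not. GENCODE M21 also gave gene type, exon and coding lengths and exon overlaps, and none of its coordinates are printed. GENCODE M21 lists 1 more protein-coding gene under the rule, Mrpl53, which is not analysed here, and 4 pseudogenes with matching symbols were left out.

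Members and gene lists were chosen with earlier results of these data known. Genes passed edgeR's filterByExpr (minimum count 10, minimum total count 15), and 15150 were tested with edgeR 4.0.16 (quasi-likelihood F test, trimmed mean of M values) in R 4.3.3, treated against control, with Benjamini-Hochberg adjustment over all of them. Each SE was taken as |log2 fold change|/√F. Departure from the shared fall was tested in the same fit with the members' median log2 fold change as an offset on treated libraries. The procedure was tested on simulated data. Library totals of 31183728 to 40129044 counts gave a biological coefficient of variation of 3.70% between libraries. No 2 libraries agreed within sampling noise.

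Members named were those that rose, did not pass or departed (in each direction the 12 with the smallest p), the 6 highest and 6 lowest log2 fold changes, the 5 highest levels per kilobase, and Mrpl12, Mrpl44, Mrpl58, the Mrps18 paralogues, Mrps6, Mrps12, Mrps30 and Mrps36 whatever their values. Of other lists, up to 4 changed genes with the smallest p, the regulators and the mitochondrial ribosomal proteins with other symbols could be named. Mrpl13, Mrpl30, Mrpl49, Mrps10, Mrps33, Mrps34, Ngrn, Gtpbp10, Tfam and mt-Rnr2, and the genes that share exons with a member, are named outside this rule after their values were seen. The comparison with coding length was also added after the data were seen. Alternatives were median-of-ratios factors, library totals, level-dependent offsets (limma 3.58.1), other filters, protein-coding genes only, a replicate block, DESeq2 1.42.0 and each library left out.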

Additional observations from a re-analysis of the deposited data

How the results depend on the processing

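Across settings that keep all libraries, 51 to 64 members were lower, against 63 as reported, 4 were higher, 21 to 23 lay above and 16 to 20 below the shared fall. Leaving out each library in turn gave 58 to 62 lower, 4 higher, a median log2 fold change of −0.28 to −0.27, 17 to 21 above and 12 to 16 below; the 12 came without control replicate 1. With library totals in place of scaling factors the median was −0.20 and 51 were lower; that scaling moves the median of all tested genes by 0.08 on the log2 scale. Of 39 members named by the rule, 27 kept direction and side of the threshold in every setting. The sign turned for Mrpl14 (0.0070), Mrps12 (0.029), Mrps16 (0.031) and Mrps17 (0.040) with library totals and for Mrps17 (0.0095) with level-dependent offsets; without single libraries Mrpl41 ran from −0.012 to 0.055 and Mrps12 from −0.095 to 0.0059. None of these 5 genes passed the test as reported, and the cause was not tested. No pairing of the libraries by replicate number was seen, since same-numbered libraries had deviation correlations of −0.01, −0.04 and 0.01. These values do not exclude that same-numbered libraries were handled together. A fit with the replicate block gave 64 lower, 4 higher, 23 above and 20 below. Spearman's rho with coding length stayed between −0.61 and −0.57. Depth limits the members at the low end of 283 counts, whose SE reached 0.09.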

Other observations

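Coding length was set beside the change in other gene groups too, as a description with no test. Spearman's rho between coding length and log2 fold change was −0.48 over 78 cytosolic ribosomal protein genes and −0.54 over 37 nuclear complex I genes, against 0.03 over 12190 tested protein-coding genes. Exon length in all, untranslated parts included, gave −0.23 over the mitochondrial ribosomal protein genes. The genes of a list share libraries, and short and long genes differ in level, so these values are not independent evidence of one pattern.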
